A study of Rattus norvegicus with 10 samples.

Results

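IGHV3-3 is one of the variable gene segments of the rat immunoglobulin heavy chain, and the reads described here are the productive heavy chain sequences whose first named V gene was IGHV3-3. They were selected on the deposited gene and functionality calls, and the gene was chosen with its read numbers in these animals known. In all, 61021 of 1615896 productive reads met the rule, or 3.78%. The reads came from spleen cells of 10 Wistar rats, an outbred strain. The 5 HuD-immunized animals (HuD1 to HuD5) received recombinant human HuD, a neuronal RNA-binding protein, and 5 DNP-immunized animals (DNP1 to DNP5) received keyhole limpet hemocyanin modified with dinitrophenyl residues. Both groups had the same schedule of 1 immunization in Freund's complete adjuvant and 3 boosts in incomplete adjuvant, so neither group is untreated, and each animal gave 1 library. The animals' age is not given in the sources used here. A read is 1 deposited line, obtained by the authors by collapsing sequences that carried the same molecular tag. The paper's supplement states that a section of CDR3 sequence was used as part of the tag.

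A heavy chain variable domain is assembled in the developing B cell from a V, a D and a J segment. The V segment encodes the first 2 complementarity-determining regions, CDR1 and CDR2, and the framework regions FR1 to FR3 around them. CDR3 lies over the joins and is the most diverse part of the domain, and together the CDRs form most of the antigen contact surface. After antigen contact, B cell clones expand and their V regions mutate, which gives families of related sequences. Positions below follow the IMGT unique numbering, in which cysteine 23, tryptophan 41, leucine 89 and the second conserved cysteine, at the end of FR3, are landmarks. These landmarks were present in 99.5%, 99.7%, 99.2% and 98.6% of the IGHV3-3 reads.

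The sequences below show what an IGHV3-3 read looked like in CDR1 and CDR2, and which CDR3s led the repertoires. Residues are written from the N-terminal to the C-terminal end, and CDR3 runs between the second conserved cysteine and the conserved J-region tryptophan.
Most common CDR1: GYSITSSYR
CDR1 of the linked residue form described below: GYSITSGYG
Most common CDR1 among IGHV3-1 reads: GYSITSNY
Most common CDR2: INSAGST
Largest clone of HuD1: ASLYSSYSLYYFDY
Largest clone of HuD2: ARSDGVHYYLPFAD
Largest clone of HuD4: ARDNNYKAY
Largest clone of DNP1: ARLGWEEGFDY
Largest clone of DNP3: ASRYYDGYYHYFNY
Largest clone of DNP4: ARWPGYNPPYAMDA
Largest clone of DNP5: ASGPNGYNYFDY
The largest clones of HuD3, HuD5 and DNP2 had CDR3s of 18, 15 and 15 residues and are described without their letters.

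Abundance of IGHV3-3 differed more within each immunogen group than between them. It made up 3.56%, 6.54%, 0.0904%, 6.07% and 2.86% of productive reads in HuD1 to HuD5, against 1.79%, 3.90%, 0.645%, 4.32% and 5.00% in DNP1 to DNP5. The group averages were 3.82% ± 2.62 in HuD animals and 3.13% ± 1.83 in DNP animals (SD, n = 5 each), and the 2 groups overlapped over nearly their whole range. HuD3 was the lowest of all, with 152 IGHV3-3 reads of 168098 productive reads (95% Wilson interval 0.0772% to 0.106%), and DNP3 the next, with 391 of 60647 (0.584% to 0.712%). These intervals cover counting error only. The other 8 animals held 2496 to 14696 IGHV3-3 reads. By read number the gene ranked 44th among the V genes of HuD3, and between the fourth and the 17th place in the other animals.

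The log2 ratio of HuD over DNP usage was -0.02 ± 0.75 (SE; edgeR quasi-likelihood test, adjusted p = 0.987), fitted over the 81 V genes with at least 100 reads. Of those genes 2, or 2.47%, passed an adjusted p of 0.05, and 19 had an unadjusted p under 0.05. DESeq2 called 14 genes and limma 16, IGHV3-3 not among them. By edgeR p-value IGHV3-3 was near the end of the 81 genes, in place 80. The sign of its ratio changed with the settings, and no setting brought the adjusted p below 0.692. In bulk RNA, a difference in read share can reflect the number of B cells or the RNA per cell, which cannot be told apart.

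IGHV3-1, another gene of the same subgroup, was 1 of the 2 V genes called. Its mean share was 3.10% ± 0.964 in HuD animals and 11.3% ± 4.55 in DNP animals (SD, n = 5 each). The log2 ratio was -2.13 ± 0.49 (SE; edgeR, adjusted p = 0.0394). The call was lost when HuD1 (adjusted p = 0.106), HuD4 (0.137) or HuD5 (0.0589) was left out, and whether the ratios of the 2 genes differ was not tested. As a description, there were 1.69, 1.39, 0.0306, 2.04 and 1.03 IGHV3-3 reads per IGHV3-1 read in HuD1 to HuD5, against 0.171, 0.207, 0.0786, 0.363 and 0.681 in DNP1 to DNP5. Only HuD3 fell among or below the DNP animals in this ratio.

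**Figure D1:**
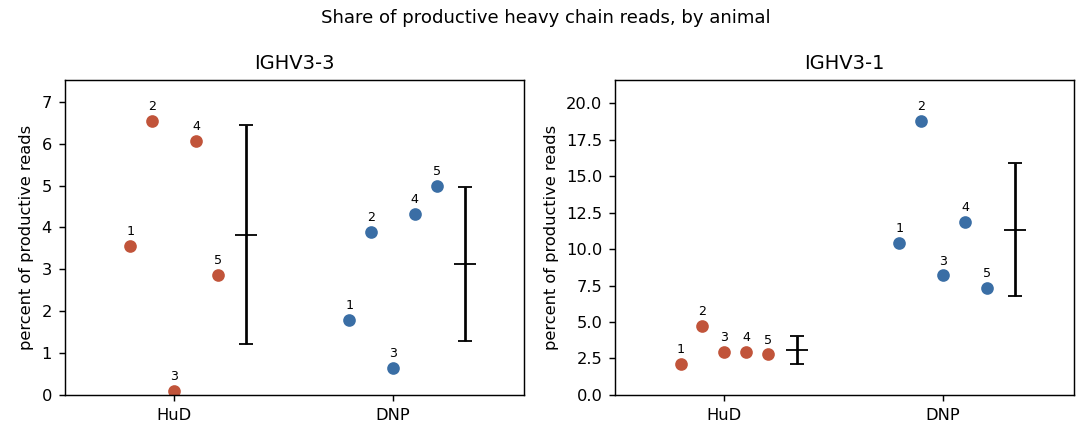
Share of productive reads (percent, vertical axis) named IGHV3-3 (left) and IGHV3-1 (right) in each HuD and DNP animal; numbers are the animals, and bars give the mean and SD of 5 animals. The IGHV3-3 shares of the groups overlap, with HuD3 at 0.0904% and DNP3 at 0.645% lowest, whereas the IGHV3-1 shares do not overlap.

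By Pearson correlation across the 10 animals, the V genes whose usage was most like that of IGHV3-3 were IGHV5-19 (Pearson r = 0.96, Spearman rho = 0.64), IGHV5-46 (r = 0.89, rho = 0.62) and IGHV2-41 (r = 0.77, rho = 0.44), on log2(RPM + 10), where RPM is the read number scaled to a common total of productive reads. Without HuD3 the Pearson coefficients were 0.85, 0.51 and 0.58. The order depended on the measure and on HuD3: IGHV7-6 had the highest Spearman coefficient (0.83) and IGHV5S23 the highest Pearson coefficient without HuD3 (0.88), both named after their values were seen. The shares are parts of the same read totals, and these coefficients are given as a description. For IGHV3-1 the coefficient was 0.16.

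The IGHV3-3 reads of HuD3 carried other framework residues than those of the remaining animals. Most IGHV3-3 reads had serine at position 70, arginine at 75 and asparagine at 92, all in FR3: 51862 reads, or 85.0%. A second combination, with proline 70, glutamine 75 and threonine 92, was found in 1559 reads, or 2.55%. This combination was picked after the residue shares had been seen, and its frequencies are a description with no test. It made up 3.596%, 0.626%, 84.9%, 3.35% and 7.19% of IGHV3-3 reads in HuD1 to HuD5, against 7.004% in DNP2 and no read in the other DNP animals. All 5 HuD animals and 1 of 5 DNP animals thus had the form. This split of the animals was not particular to IGHV3-3. IGHV5-35 had 834 to 5566 RPM in HuD animals and 4895 in DNP2, and no read in DNP1, DNP3, DNP4 and DNP5. IGHV5-43 had 375 to 2061 RPM in HuD animals and 412 in DNP2, and no read in those DNP animals. Other V genes, IGHV3-1 among them, were read in every animal. What underlies the split was not tested. In HuD3 it accounted for 129 of 152 reads (95% Wilson interval 78.3% to 89.7%), and 1 read of HuD3 had serine, arginine and asparagine.

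No read of the proline form was seen among 2496, 391, 11219 and 4579 IGHV3-3 reads in DNP1, DNP3, DNP4 and DNP5, which allows shares of up to 0.120%, 0.767%, 0.0267% and 0.0655%. Relative to all productive reads the level of the proline form was 0.128%, 0.0410%, 0.0767%, 0.203% and 0.205% in HuD1 to HuD5 and 0.273% in DNP2. The serine form took 3.27%, 5.50%, 5.28% and 2.38% of productive reads in HuD1, HuD2, HuD4 and HuD5, but 1 read in HuD3, against 1.54%, 3.02%, 0.505%, 3.70% and 4.27% in DNP1 to DNP5. In HuD3 the serine form was thus nearly missing, while the level of the proline form lay within the range of the other 5 animals that had it.

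**Figure D2:**
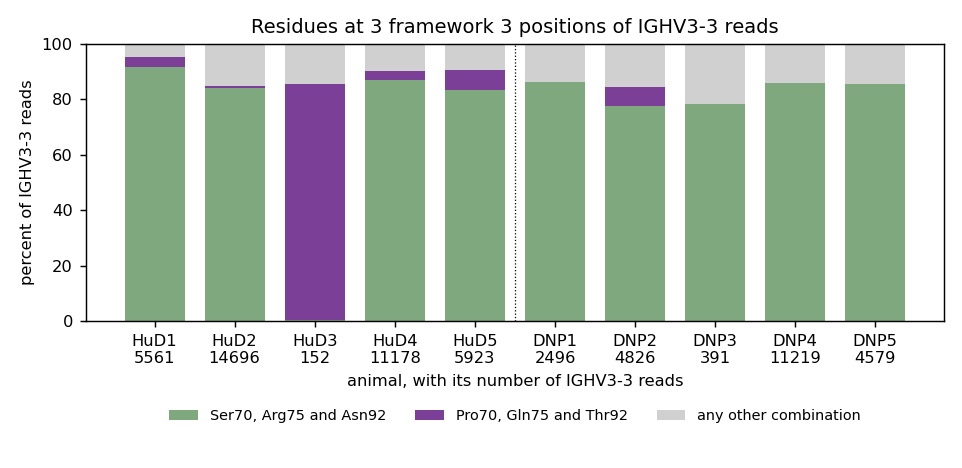
Stacked bars of the percent of IGHV3-3 reads (vertical axis) with serine 70, arginine 75 and asparagine 92 (green), with proline 70, glutamine 75 and threonine 92 (purple), or with any other combination (grey), for each animal with its read number below. The proline form fills 84.9% of HuD3, is between 0.626% and 7.19% in the other HuD animals and DNP2, and is absent from the reads of the other 4 DNP animals.

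The proline form differed at more positions than the 3 that defined it. Leucine stood at position 91 in 98.8% of its reads, against 9.58% of reads of the serine form, where valine was usual with 88.5%. Leucine was also the most common residue at 91 in IGHV3-1 reads, whose most common residues at 70, 75 and 92 were serine, arginine and asparagine. In CDR1, glycine at both 36 and 38, as in GYSITSGYG, was found in 77.4% of reads of the proline form, against 0.569% of reads of the serine form. The GYSITSGYG spelling itself made up 78.3% of IGHV3-3 reads in HuD3, whereas GYSITSSYR was absent there and took 7.53% to 44.0% in the other 9 animals. Among productive reads given to other V genes, 17 had all 3 residues of the proline form.

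Its reads were spread over many rearrangements rather than 1 clone. They held 444 combinations of animal and CDR3, and none of those CDR3s was found with the proline form in 2 animals. The CDR3s in which the proline form outnumbered the serine form came to 30, 35, 48, 68 and 65 in HuD1 to HuD5 and 66 in DNP2. They included ARRGLQSYYFDY in HuD1 with 118 proline-form reads, ARSFVRPFFDY in HuD2 with 37 and ARSFSYVMDA in HuD4 with 118. In HuD5 ARSTGILRTMDA had 202 and in DNP2 VRSNGGFRGWHFDF had 124. In 150 of the 444 combinations both forms were read with the same CDR3, in 120 of them with 1 read of the rarer form. Among the 64 such CDR3s with at least 20 reads, the rarer form held a median of 1.80% of the reads and at most 7.14%.

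CDR1 came in 2 lengths. A length of 9 residues was the rule, and a CDR1 of 8 residues, the usual length in IGHV3-1 (97.6% to 99.8% of IGHV3-1 reads by animal), occurred in 0.342%, 7.06%, 12.5%, 5.60% and 8.63% of IGHV3-3 reads in HuD1 to HuD5, against 9.33%, 16.3%, 4.35%, 13.3% and 1.79% in DNP1 to DNP5. The shares of both groups overlapped. The spelling GYSITSNY, carried by 57.6% of IGHV3-1 reads, was present in IGHV3-3 reads of all 10 animals, at 0.216% to 10.6%. In CDR2, INSAGST made up 14.9% to 76.3% of IGHV3-3 reads by animal and was not read with IGHV3-1. The gene call itself depends on these residues. Over the positions read in both genes, the most common residue differed at 10, in CDR1, FR2, CDR2 and FR3, and IGHV3-3 had an additional residue at 38.

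The same CDR3 was often read on both genes in 1 animal. Between 48.7% and 87.6% of IGHV3-3 reads in HuD animals, and between 61.1% and 91.7% in DNP animals, had a CDR3 that was also seen with IGHV3-1 in that animal. Counted by reads, which gives large IGHV3-3 clones the most weight, the CDR3 was more frequent on IGHV3-1 for 1.74%, 7.17%, 9.21%, 4.94% and 6.53% of IGHV3-3 reads in HuD1 to HuD5, against 7.69%, 21.1%, 5.37%, 19.2% and 4.96% in DNP1 to DNP5. Counted by distinct CDR3s, 65.5% to 84.2% in HuD animals and 51.6% to 83.0% in DNP animals had at least as many reads on IGHV3-3 as on all other V genes together, CDR3s seen on no other gene included. DNP2 and DNP4, the 2 highest by reads, were also the animals with the most IGHV3-1 reads, 23280 and 30877. As an example, DNP4 had 2498 reads of ARWPGYNPPYAMDA with IGHV3-3 and IGHJ4 and 416 reads of this CDR3 with IGHV3-1. Whether such pairs come from the cells or from the amplification and gene assignment was not tested.

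A clone was defined as the reads of 1 animal with the same IGHJ gene and the same CDR3 residues. The 10 repertoires held 62 to 2164 clones in HuD animals and 94 to 1430 in DNP animals, and 66.9% to 79.0% of the clones in HuD animals and 57.4% to 72.2% in DNP animals were single reads. Most IGHV3-3 reads rested on 1 sequenced copy, 79.2% to 97.4% in HuD animals and 80.8% to 98.7% in DNP animals. Such reads had no second copy with which to correct errors. How far errors add to single-read clones, CDR3 families and residue differences was not tested. The 10 largest clones took 68.1%, 38.6%, 63.8%, 47.2% and 37.4% of IGHV3-3 reads in HuD1 to HuD5, against 53.3%, 39.7%, 61.4%, 54.7% and 60.3% in DNP1 to DNP5. The means were 51.03% ± 14.2 in HuD animals and 53.9% ± 8.66 in DNP animals (SD, n = 5 each). The difference of -2.83 percentage points was smaller than the spread within either group (two-sided exact permutation test, p = 0.714).

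At an equal depth of 152 reads, the expected number of clones was 46.8, 81.9, 62.0, 66.4 and 77.0 in HuD1 to HuD5, against 62.2, 82.7, 53.5, 67.9 and 54.2 in DNP1 to DNP5. Here too the groups overlapped, with a difference of 2.76 clones (exact permutation test, p = 0.746). HuD1 and DNP3 were the least diverse animals of their group by this measure, and HuD2 and DNP2 the most diverse.

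The largest clones differed from animal to animal in CDR3, J gene and weight. In HuD1, ASLYSSYSLYYFDY with IGHJ2 held 1693 reads or 30.4% (95% Wilson interval 29.2% to 31.7%), and ARSRYNNYVMDA with IGHJ4 held a further 1015 reads or 18.3%. In HuD2 the leading clone was ARSDGVHYYLPFAD with IGHJ3, at 1052 reads or 7.16%. HuD3 was led by an IGHJ2 clone of 21 reads, which was 13.8% of its small repertoire (9.22% to 20.2%). HuD4 had ARDNNYKAY with IGHJ2, at 1176 reads or 10.5%, and HuD5 an IGHJ1 clone of 457 reads or 7.72%.

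In DNP1, ARLGWEEGFDY with IGHJ2 held 307 reads or 12.3% (11.1% to 13.6%), closely followed by ARLAWEEGFDY with 265 reads. DNP2 was led by an IGHJ3 clone of 482 reads or 9.99%. DNP3, with few reads, was led by ASRYYDGYYHYFNY with IGHJ2, whose 147 reads were 37.6% of the repertoire (32.9% to 42.5%). In DNP4, ARWPGYNPPYAMDA with IGHJ4 held 2498 reads or 22.3%, and in DNP5 ASGPNGYNYFDY with IGHJ2 held 667 reads or 14.6%. None of these 10 CDR3s led 2 animals. In 3 of them the number of sequenced copies per read was high for the animal: 4.18 for the leading clone of HuD2 (1.56 over all its IGHV3-3 reads), 2.82 for that of HuD4 (1.45) and 3.33 for that of DNP4 (1.64). The random part of the tag has 6 bases and 4096 possible codes, and the 2498 reads of the DNP4 clone carried 1818 different ones, so separate molecules of such a clone could have the same code.

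**Figure D3:**
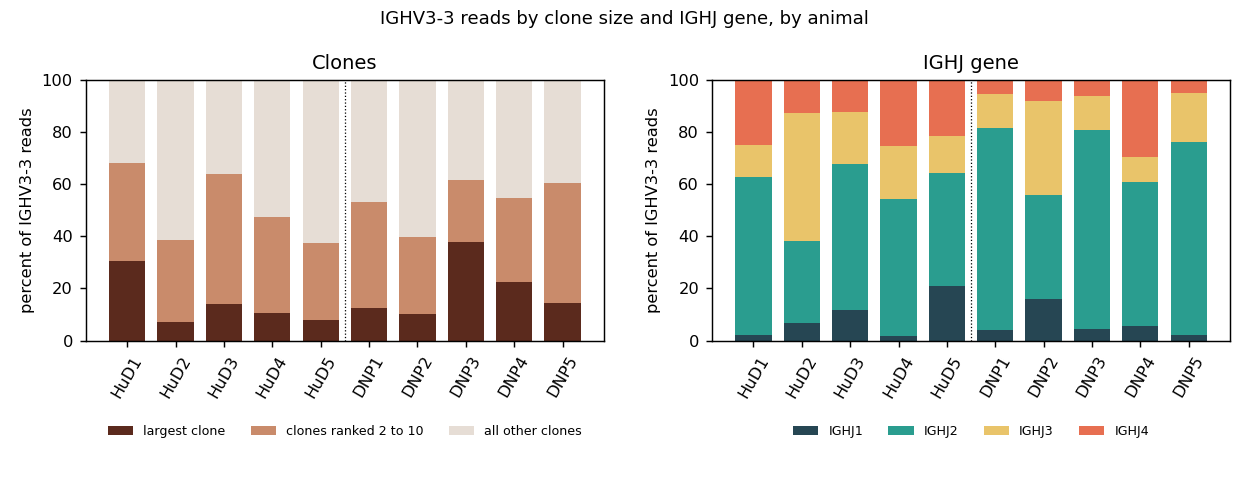
Percent of IGHV3-3 reads of each animal (vertical axes) in its largest clone, in the clones ranked 2 to 10 and in all other clones (left), and by the IGHJ gene of the read (right). The largest clone holds 7.16% to 30.4% of reads in HuD animals and 9.99% to 37.6% in DNP animals, and IGHJ2 is the leading J gene in all animals but HuD2.

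Many of the large clones belonged to families of CDR3s that differed by single residues. Clones of 1 animal were joined when they had the same J gene and CDR3 length and differed at 1 residue, in chains. The largest family held 31.97%, 41.6%, 16.4%, 16.3% and 14.6% of IGHV3-3 reads in HuD1 to HuD5, against 25.2%, 12.5%, 41.2%, 23.2% and 21.8% in DNP1 to DNP5. In HuD2 a single family of 352 clones and 6107 reads, all with IGHJ3 and 14 residues, contained 41.6% of the reads. Besides ARSDGVHYYLPFAD it included ARSEGTHYYLPFAD with 970 reads and ARSDGTHYYLPFIY with 655. Within this family serine 3, histidine 7, tyrosine 8, leucine 10 and proline 11 of CDR3 were kept in at least 99.4% of reads. Position 4 was aspartate in 63.1% and glutamate in 36.4%, position 6 threonine in 47.4% and valine in 45.5%, and position 14 aspartate in 67.2%, tyrosine in 16.7% and serine in 10.4%.

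The leading family of HuD1 varied far less, as 1693 of its 1778 reads had the same CDR3. In HuD4 the family of ARDNNYKAY had 28 clones, the second largest being GRDNNYKAY with 513 reads. In DNP1, ARLGWEEGFDY and ARLAWEEGFDY made up 572 of the 629 reads of the family. In DNP4 the second family had 2036 reads and was shared out between ARGDILRSFDY (794 reads), TRGDILRSFDY (731) and ARANILRSFDY (479). In DNP5, AIQLGVFDY and AVQLGVFDY, with 598 and 260 reads, led a family of 44 clones and 997 reads.

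IGHJ pairing did not differ between the immunogen groups beyond the spread of the animals. IGHJ2 was paired with 60.9%, 31.6%, 55.9%, 52.7% and 43.2% of IGHV3-3 reads in HuD1 to HuD5, against 77.3%, 39.7%, 76.2%, 55.3% and 74.0% in DNP1 to DNP5. The difference of means was -15.6 percentage points (exact permutation test, p = 0.127, adjusted over the 4 J genes 0.302), and -4.15 points with each clone counted once. IGHJ4 averaged 19.5% ± 6.42 in HuD animals and 10.9% ± 10.6 in DNP animals (SD, n = 5 each), with DNP4 at 29.8% above every HuD animal (exact permutation p = 0.151, adjusted 0.302). The difference was 8.61 points, 3.61 with each clone counted once and 13.3 without DNP4. IGHJ3 averaged 22.99% ± 14.9 in HuD animals and 18.1% ± 10.5 in DNP animals, the highest value being 49.0% in HuD2, where the large IGHJ3 family was found. IGHJ1 averaged 8.63% ± 8.08 in HuD animals and 6.45% ± 5.54 in DNP animals. The exact permutation p-values for IGHJ3 and IGHJ1 were 0.540 and 0.651, both 0.651 after adjustment.

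The J genes used with IGHV3-3 were also compared with those of all other productive reads of the same animal. The mean difference was 1.91 percentage points for IGHJ2, 2.97 for IGHJ4, -3.38 for IGHJ3 and -1.50 for IGHJ1. None passed the exact sign-flip test over the 10 animals (adjusted p between 0.688 and 0.709). Single animals departed widely from their other reads: in HuD2 IGHJ3 took 49.0% of IGHV3-3 reads and 22.5% of other reads, and in HuD5 IGHJ1 took 21.1% of IGHV3-3 reads and 6.94% of other reads. With each clone counted once, the IGHJ1 and IGHJ2 differences from other reads were 0.375 and -0.696 points, with the opposite sign.

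D segments were read as a description. IGHD1-12 was the most frequent, at 25.9% ± 19.9 of IGHV3-3 reads in HuD animals and 16.8% ± 18.6 in DNP animals (SD, n = 5 each), with animals between 2.42% and 57.7%. It was named in the leading clones of HuD2, HuD3 and DNP3. Its mean share of 21.4% over the 10 animals compared with 10.7% among other reads, but it was higher than among other reads in 5 of 10 animals.

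CDR3 was longer in IGHV3-3 reads than in the other productive reads of the same animals. Mean length was 12.8, 13.3, 13.8, 11.8 and 12.6 residues in IGHV3-3 reads of HuD1 to HuD5, against 11.4, 11.98, 11.5, 12.1 and 12.2 residues in their other reads. In DNP1 to DNP5 it was 11.6, 12.7, 12.5, 11.9 and 11.4 residues in IGHV3-3 reads, against 11.3, 12.4, 11.9, 11.97 and 11.1 in their other reads. IGHV3-3 reads were the longer in 8 of 10 animals, all but HuD4 and DNP4, with a mean difference of 0.640 residues (two-sided exact sign-flip test over 10 animals, p = 0.0215). With each clone counted once the difference was 0.227 residues. Without HuD3 and DNP3 it was 0.434 residues and no longer passed (exact sign-flip p = 0.0859). The animal with the largest difference was HuD3, with 2.30 residues.

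Between the groups, mean CDR3 length of IGHV3-3 reads was 12.8 ± 0.758 residues in HuD animals and 12.01 ± 0.557 in DNP animals (SD, n = 5 each). The difference of 0.829 residues did not pass (exact permutation p = 0.0873), and it did without HuD4 (1.10 residues, exact permutation p = 0.0317). Counted by clones, the means were 12.5 ± 0.232 in HuD animals and 12.1 ± 0.403 in DNP animals.

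**Figure D4:**
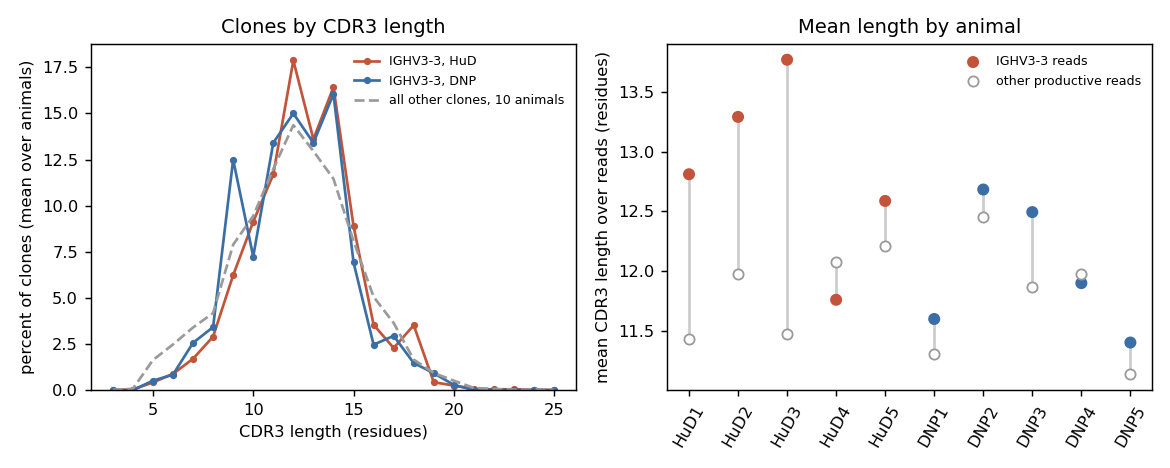
Left, percent of clones by CDR3 length in residues, as the mean over HuD animals (red) and DNP animals (blue) for IGHV3-3 and over all 10 animals for other clones (dashed). Right, mean CDR3 length over reads for IGHV3-3 (filled) and other productive reads (open) of each animal, where IGHV3-3 is the higher in all animals but HuD4 and DNP4.

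The makeup of CDR3 was compared over clones, as a description. In all 10 animals more IGHV3-3 clones than other clones began with alanine and arginine, on average 68.6% and 46.8%. Tyrosine made up 18.99% of CDR3 residues in IGHV3-3 clones and 17.4% in other clones, and it was higher in IGHV3-3 clones in 8 of 10 animals. Tryptophan was present in 27.5%, 22.1%, 29.03%, 29.8% and 36.9% of IGHV3-3 clones in HuD1 to HuD5, against 40.4%, 37.4%, 42.6%, 37.6% and 35.7% in DNP1 to DNP5. The 2 groups overlapped only through HuD5 and DNP5. Among other clones the share with tryptophan was 29.1% to 31.1% in HuD animals and 28.9% to 38.5% in DNP animals. It was higher in IGHV3-3 clones in 6 of 10 animals, which were HuD5 and the DNP animals. Net charge averaged -0.133 in IGHV3-3 clones and -0.240 in other clones.

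Few CDR3s of IGHV3-3 reads recurred between animals. Of 7713 distinct CDR3s, 7647 were read in 1 animal, 61 in 2, 2 in 3 and 3 in 4, and none in 5 or more. No CDR3 was therefore read in all 5 animals of an immunogen group. The 66 recurring CDR3s, or 0.856%, were short, with a median of 9 residues against 13 for those of 1 animal. Among them, 16 were found in HuD animals only, 24 in DNP animals only and 26 in both groups. HuD3 had none. This split counts IGHV3-3 reads only, and the same split over all V genes is not given here. Over all V genes some CDR3s of a single group were read more widely, ARPDY in 8 animals and ARWDY in 9. Others, such as ARWPGYNPPYAMDA and ARSRYNNYVMDA, were still read in 2 animals. For all productive reads, 2.44% of distinct CDR3s were read in more than 1 animal.

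The 5 CDR3s read in most animals were closely alike, ending in YFDY or YGLDY.
In 4 animals: ARLHYGLDY
In 4 animals: ARWTRYFDY
In 4 animals: ARWTYYFDY
In 3 animals: ARMHYGLDY
In 3 animals: ARWVYYFDY
ARLHYGLDY had 2 reads in HuD1 and 8 in HuD4, against 3 in DNP2 and 248 in DNP4. ARMHYGLDY, which differs from it at 1 residue, had 108 reads in HuD2, against 6 in DNP4 and 2 in DNP5. For both, most reads of the series were IGHV3-3 reads (261 of 342 and 116 of 121). The other 3 were mainly found on other V genes, chiefly IGHV3-1. ARWTRYFDY had 13 IGHV3-3 reads in HuD5, against 29 in DNP1, 1 in DNP2 and 22 in DNP5, out of 5058 productive reads with this CDR3. ARWTYYFDY had 14 IGHV3-3 reads of 2096 and ARWVYYFDY 7 of 756.

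The overlap of IGHV3-3 CDR3s was compared between pairs of animals of the same and of different immunogen groups. Overlap of a pair was the geometric mean of the read shares that the common CDR3s took in each animal. It averaged 1.79% for the 20 pairs within a group and 0.157% for the 25 pairs of a HuD with a DNP animal. The difference of 1.63 percentage points was the largest over all divisions of the animals into 5 and 5 (one-sided exact permutation test, p = 0.00794, the smallest this test can give). The mean was 0.760% for HuD pairs, 2.82% for DNP pairs and 0.157% for mixed pairs. The medians were 0.00782%, 0.428% and 0.0628% in the same order, so the typical HuD pair did not exceed the typical mixed pair. The 3 highest pairs had 12.6% (DNP2 with DNP5), 12.3% (DNP3 with DNP4) and 6.44% (HuD1 with HuD4), and over all V genes these pairs had 18.5%, 34.4% and 6.46%. No other pair exceeded 1.06%, and 5 of 10 HuD pairs, 1 of 10 DNP pairs and 8 of 25 mixed pairs shared nothing.

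Many common CDR3s were large in 1 animal and at 1 or 2 reads in the other, and all 8 of DNP2 with DNP5 had 1 read in 1 of the animals. ARWPGYNPPYAMDA had 2508 reads in DNP4 and 2 in DNP3, and ARGDILRSFDY had 801 in DNP4 and 1 in DNP3. AIQLGVFDY had 606 in DNP5 and 1 in DNP2, and ARSRYNNYVMDA had 1015 in HuD1 and 1 in HuD4. A CDR3 well read in both animals of a pair was ARSRYNNYVMDV, with 61 reads in HuD1 and 228 in HuD4. Of the 66 recurring CDR3s, 47 had a single read in at least 1 animal and 21 had at least 2 reads in 2 animals. The overlap measure gives weight to such single reads, because 1 read marks the whole clone of the other animal as common.

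The difference between pairs within and across groups was 0.530 points when a CDR3 needed 2 reads to count (p = 0.0317, exact permutation test). It was 0.113 points at 5 reads, where 7 CDR3s recurred (exact permutation p = 0.167). In 7 cases the same tag stood with the same CDR3 in 2 animals, 5 of them in DNP3 and DNP4, 1 in HuD1 and HuD4 and 1 in HuD5 and DNP5. The paper states that no read in different samples was found with both sequence and barcode alike. The match here is on the tag and the CDR3 residues only, not on the whole sequence. Only the last 6 letters of a tag vary within a clone, which gives 4096 codes. In DNP4 the clones of ARWPGYNPPYAMDA, ARGDILRSFDY, TRGDILRSFDY and ARGATGDY used 1818, 715, 640 and 311 of them. DNP3 had 2, 1, 1 and 1 IGHV3-3 reads of these CDR3s in the same order, and all of these reads had a tag also read in DNP4. In HuD1 the clone of ARSRYNNYVMDA used 951, and the only HuD4 read of this CDR3 had a matching tag. ARWTRYFDY had only 13 reads in HuD5 and 22 in DNP5. How the matches arose was not tested. Without the reads with a matching tag, 61 CDR3s recurred instead of 66, and the difference between pairs was 0.918 points (exact permutation p = 0.00794). Without DNP5 it was 1.18 points and did not pass (exact permutation p = 0.0714). Where the single reads of such CDR3s come from was not tested.

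**Figure D5:**
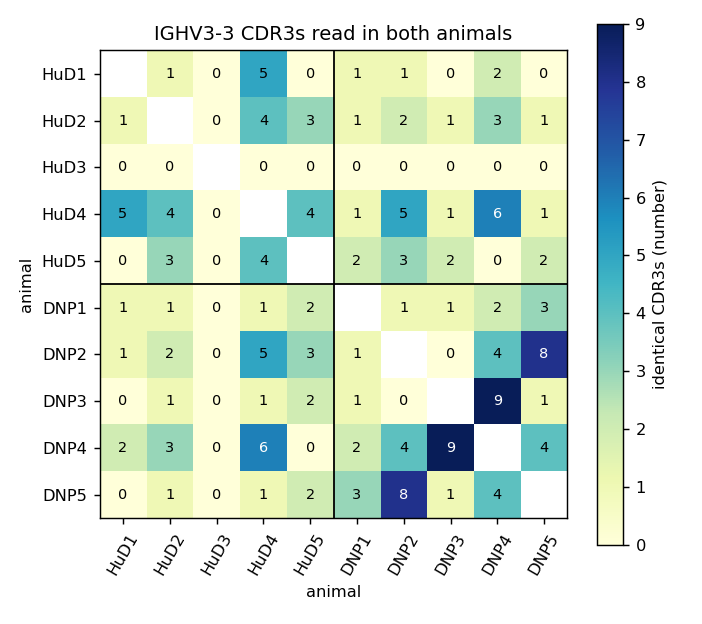
Number of identical CDR3s among the IGHV3-3 reads of each pair of animals, with lines between the HuD and DNP animals. The darkest fields are DNP3 with DNP4 (9 CDR3s) and DNP2 with DNP5 (8), HuD4 with DNP4 has 6 and HuD1 with HuD4 has 5, and HuD3 has no CDR3 in common with any animal.

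Residue variation outside CDR3 was measured against the common residue of each position, which is the one with the highest mean share over the 10 animals. This is a residue found in the reads and not a germline reference. IGHV3-3 reads differed from it at a mean of 4.84, 5.19, 7.68, 4.55 and 4.73 positions in HuD1 to HuD5, against 6.28, 6.53, 5.20, 5.60 and 8.02 in DNP1 to DNP5. The group means were 5.401 ± 1.30 in HuD animals and 6.33 ± 1.08 in DNP animals (SD, n = 5 each), and the difference of -0.925 did not pass (exact permutation p = 0.262). HuD3 stood apart. Its 23 reads outside the proline form had 7.04 differences, but 18 of them carried 2 of the 3 residues of that form. They are therefore not separate evidence that HuD3 differs. Without HuD3 the difference was -1.50 (exact permutation p = 0.0317), and the 4 HuD animals then lay between 4.55 and 5.19 against 5.20 to 8.02 in the DNP animals. Without HuD3 and DNP3 it was -1.78 (exact permutation p = 0.0286, the smallest 4 against 4 can give). With all 10 animals but without the reads of the proline form it was -1.10 and did not pass (exact permutation p = 0.151). Reads with only 2 of its 3 residues stayed in, so this does not take the form out of HuD3 fully.

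Reads with no difference at all made up 7.17%, 3.23%, 0%, 6.84% and 5.35% of IGHV3-3 reads in HuD1 to HuD5, against 3.49%, 3.48%, 3.58%, 2.82% and 2.80% in DNP1 to DNP5. Variation was concentrated in CDR1 and CDR2. Per 100 residues read, CDR1 differed at 15.1 ± 4.62 in HuD animals and 15.9 ± 5.41 in DNP animals, and CDR2 at 9.99 ± 4.14 in HuD animals and 18.4 ± 5.20 in DNP animals (SD, n = 5 each). FR1 differed at 1.99 ± 0.782 and FR2 at 3.79 ± 0.893 in HuD animals, against 2.55 ± 0.855 and 6.29 ± 1.43 in DNP animals. FR3 differed at 5.83 ± 3.63 in HuD animals and 5.22 ± 1.11 in DNP animals, with 12.2 in HuD3. IGHV3-1 reads, against their own common residues, differed at 5.41 positions on average over the 10 animals, and IGHV3-3 reads at 5.86, the higher value in 6 of 10 animals.

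By position, no share of the common residue passed the test between the groups: of the 90 positions with another residue in at least 1% of reads of 1 animal, 0, or 0%, were called (limma on log2 odds, lowest adjusted p = 0.174), and 9 had an unadjusted p under 0.05. The exact permutation test by position called 0 and gave 7 with an unadjusted p under 0.05. The 5 positions with the largest differences in log2 odds, HuD minus DNP, are given without a call. Arginine 75 (-4.18 ± 1.74 SE, adjusted p = 0.351) and serine 70 (-3.85 ± 1.88, adjusted p = 0.475) were positions of the proline form, and without HuD3 their differences were -2.23 and -1.70. Arginine 38, the last residue of CDR1, had -2.59 (adjusted p = 0.655), against -0.37 without HuD3, and its sign turned without HuD3 and DNP3 (0.24).

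Tyrosine 37 in CDR1 was read in 98.99%, 96.9%, 98.5% and 89.9% of IGHV3-3 reads in HuD1, HuD2, HuD4 and HuD5 and in every read of HuD3 with a residue there, against 81.5%, 76.4%, 96.9%, 77.9% and 64.97% in DNP1 to DNP5. The groups overlapped through DNP3, which lay above HuD2 and HuD5. The other residues differed between animals: phenylalanine took 27.2% in DNP5 and 10.4% in DNP1 but 0.402% in DNP4, where the CDR1 spelling GYSITSCCR, with cysteine at 37, made up 11.9% of reads. The log2 odds difference was 3.52 ± 0.97 (SE; limma, adjusted p = 0.174). It passed with each clone counted once (adjusted p = 0.0495) and without HuD3 and DNP3 (adjusted p = 0.0498). It also passed in the fit with a replicate block, although the numbers do not pair the animals. In 13 of 16 repeats it did not pass.

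Lysine 14 in FR1 was read in 99.6%, 97.9%, 98.03%, 97.9% and 96.8% in HuD1 to HuD5, against 91.3%, 93.8%, 96.6%, 83.0% and 73.3% in DNP1 to DNP5. Here the groups did not overlap, HuD5 and DNP3 being closest. Glutamate was the most frequent other residue in DNP4 (11.95%) and DNP5 (19.8%). The log2 odds difference was 2.70 ± 0.78 (SE; limma, adjusted p = 0.174), and it passed with each clone counted once (adjusted p = 0.00666). It did not pass in 15 of 16 repeats, and leaving out single animals gave adjusted p-values of 0.0817 to 0.378 (limma). The groups also did not overlap at valine 13 (lowest HuD value 99.61%, highest DNP value 99.56%) and glycine 63 (98.581% and 98.569%).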

How the data were processed

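Spleen RNA of 10 rats was reverse transcribed with primers on the heavy chain constant domains that carried a tag with 6 random bases, amplified by multiplex PCR and sequenced on 1 MiSeq run. The supplement adds that this tag proved too short, so a section of CDR3 served as a further tag in the data analysis. Per the study's methods the authors joined the paired ends with PEAR, built 1 sequence per tag with MIGEC and had High-VQuest assign genes and residues. For tool versions and the germline set: not given in the sources used here. The deposited lines hold gene names, functionality calls and gapped residue sequences, and the authors' copy number is a whole-number count of sequenced copies per line. One line was taken as 1 read, so the read counts and every percent given were computed here from the deposited lines. Productive reads per animal ranged from 60647 to 259834, and IGHV3-3 reads from 152 to 14696; shares of single animals have 95% Wilson intervals, which, like the limit of 3 reads used where none was seen, cover counting error only. Of the IGHV3-3 reads, 7 also named another V gene.

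The members, lists and tests were chosen with earlier results of these data known. Groups came from the sample titles. Usage was tested with edgeR 4.0.16 (TMM, quasi-likelihood, genes with at least 100 reads), residues by position with limma 3.58.1 (pseudocount 0.5), both with Benjamini-Hochberg adjustment, and single values with two-sided exact permutation tests over 252 sets (smallest p 0.00794) or sign-flip tests over the 10 animals (smallest p 0.00195). The scripts were tested on simulated data. Named were the largest clone of each animal, CDR3s read in all 5 animals of 1 group and none of the other, the 5 CDR3s read in most animals, the 5 positions with the largest log2 odds difference where none was called, IGHV3-1, and the 3 V genes most like IGHV3-3 in usage. DESeq2 1.42.0, limma, other filters, sequenced copies, clones counted once, a replicate block and leaving out animals were alternatives; leaving out HuD3 and DNP3 together, the 5-read limit, the removal of tags read in 2 animals and the removal of the proline form were added after seeing the data. Same-numbered animals are not the same animals: correlations of their usage deviations lay between -0.14 and 0.29, so the numbers were not taken as pairs.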

Additional observations from a re-analysis of the deposited data

Results flagged for a closer look

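In 44 groups of 5 values, 12 values lay far from the other 4 of their group by Dixon's ratio at the 95% level; chance would single out about 1 group in 20 if the measures were unselected and independent, which they are not. HuD3 had 84.9% of its IGHV3-3 reads in the proline form (0.626% to 7.19% in the other HuD animals) and 0.658% in the serine form (83.3% to 91.9%). Both forms were picked after the residue shares had been seen, and the next 2 values come from the same reads: 7.68 differences from the common residue per read (4.55 to 5.19) and 12.2 differences per 100 residues of FR3 (3.38 to 5.18). In DNP2 the proline form reached 7.004%, where the other DNP animals had none, so that any read would stand apart, and IGHJ1 took 16.1% of reads (1.94% to 5.47%). HuD1 stood out with 30.4% of reads in its largest clone (7.16% to 13.8%) and with 3.36 differences per 100 residues of FR1 (1.43 to 1.86). IGHJ3 took 49.0% of IGHV3-3 reads in HuD2 (12.03% to 20.004%), and IGHJ4 took 29.8% in DNP4 (4.94% to 8.25%). Outside the productive reads, 24.8% of IGHV3-3 lines were unproductive in DNP3 (7.82% to 11.4% in the other DNP animals), and 13.3% in HuD1 (6.43% to 8.22% in the other HuD animals).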

How the results depend on the processing

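Of 330 repeats of 22 values, 287 kept their direction and their side of the threshold. The usage ratio, near 0, turned to 0.16 with DESeq2, 0.21 with no filter on low counts, 0.092 with reads naming 1 V gene, 0.22 with sequenced copies and 0.25 without HuD3 and DNP3, and ranged from -0.37 to 0.32 when single animals were left out; none passed. Over all V genes, 2 were called with edgeR, 14 with DESeq2 and 16 with limma. In the fit with a replicate block it was -0.43 (adjusted p = 0.692) and 1 position, tyrosine 37, was called (adjusted p = 0.0203); the numbers do not pair the animals. Positions called were 2 with clones counted once and 1 without HuD3 and DNP3, against 0; arginine 38 turned to 0.24 in the second of these.

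IGHJ1 turned to -0.571 points with clones counted once, and ranged from -0.919 to 4.60 when single animals were left out; IGHJ3 ranged from -1.65 to 9.30. Against the other reads, IGHJ1 turned to 0.375 with clones counted once and 0.189 with at least 2 copies; IGHJ2 turned to -0.696, -1.19 and, without HuD3 and DNP3, -0.00914, and ranged from -0.446 to 5.30. Leaving out single animals, clone dominance ranged from -7.10 to 0.580, clone richness from -1.02 to 7.77, CDR3 length from 0.597 to 1.10, CDR3 overlap from 1.18 to 2.07 and differences from the common residue from -1.50 to -0.501. At 2496 reads without HuD3 and DNP3, richness turned to -7.89 clones (exact permutation p = 0.943). Without both animals CDR3 length against the rest was 0.434 and differences from the common residue were -1.78; at 5 reads per CDR3 the overlap difference was 0.113. The causes were not tested. HuD3 and DNP3 had the fewest IGHV3-3 reads, 152 and 391. In productive reads DNP3 was also the lowest, with 60647, but HuD3 was not, with 168098. A single read is 0.658% of the IGHV3-3 reads of HuD3.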

Other observations

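Lines named IGHV3-3 but left out as unproductive numbered 945, 1332, 13, 847 and 417 in HuD1 to HuD5, against 344, 572, 139, 1313 and 455 in DNP1 to DNP5; lines of unknown functionality numbered 624, 174, 6, 82 and 142 in HuD1 to HuD5, against 184, 109, 31, 96 and 781 in DNP1 to DNP5. DNP5 and HuD1 thus had the most lines of unknown functionality, although HuD2 and DNP4 had the most IGHV3-3 reads.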
